A study of Mus musculus with 17 samples.

Results

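The genes described here encode the kinase Stk11, which the study calls Lkb1, the partners Strada and Cab39 that make it active, and kinases that it switches on, namely the AMPK catalytic subunits Prkaa1 and Prkaa2, the salt-inducible kinases Sik1, Sik2 and Sik3, and the microtubule affinity-regulating kinase Mark2. These 9 genes were chosen by name, out of 17555 distinct gene names in the 3 deposited tables, and their rows were read in every library of tumor cells, TRMs and MDMs. All 9 had a row in the tumor cell table, and 8 had one in each of the TRM and MDM tables, where Prkaa2 was not analysed here. Values are RPKM, in which a read count is divided by the length of the gene and by the depth of the library, so that levels can be set side by side between genes within a library.

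The cells were primary cells sorted by flow cytometry from tumor-bearing lungs of adult mice, 10 weeks after Ad-Cre had been given into the nose, which was followed by tamoxifen. KL mice carried Lkb1fl/fl, and KLG4 mice carried Lkb1fl/fl together with Gpx4m/m, so both genotypes had the floxed Lkb1 gene, and both received the virus and the drug. The Gpx4m allele, an insertion into Gpx4, held rox sites around Gpx4 exons, the coding sequence of the tamoxifen-dependent recombinase DreERT2, and a STOP cassette that Cre removes ahead of a CAG promoter. Each of the 6 groups had 2 libraries. By the study's account those of tumor cells came from separate mice, but each of these libraries held both Xist, the RNA that coats an inactive X, at 4.17 to 6.18 RPKM, and the Y-linked gene Eif2s3y, at 7.27 to 9.26 RPKM, so each had RNA of male and female cells. For TRMs and MDMs no source used here gives the animals. The p-values therefore measure the spread between libraries, which may be technical. The study describes the rearrangement of Gpx4 as particular to tumor cells among the cell types it sorted. Gpx4, the targeted gene, measured 95.0 and 76.8 RPKM in KL tumor cells and 56.4 and 61.9 RPKM in those of KLG4, a log2 fold change of -0.53 ± 0.15 (SE, adjusted p = 0.036, limma). The TRM values were 89.8 and 88.2 against 53.8 and 57.0 RPKM, and the MDM values 44.9 and 71.3 against 93.6 and 97.7 RPKM.

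Stk11 is a serine/threonine kinase that is inactive alone. It forms a complex with the pseudokinase Strada, which holds it in an active shape and in the cytoplasm, and with the scaffold Cab39, also called MO25, which steadies the pair. The complex phosphorylates a threonine in the activation loop of AMPK and of the kinases related to it. AMPK senses a low energy charge and slows anabolic pathways such as fatty acid synthesis, the SIKs hold the CRTC coactivators and class IIa histone deacetylases in the cytoplasm, and the MARKs control cell polarity and microtubules. Loss of STK11 is frequent in human lung adenocarcinoma, and in mice it speeds the growth of lung tumors.

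Stk11 lies on mouse chromosome 10 (GRCm38, chr10:80115803-80130682, plus strand), and the floxed stretch of the Lkb1 allele comprises exons 3 to 6. In the transcript Stk11-201 of the GENCODE vM21 annotation, which has 10 exons, these lie at chr10:80125479-80126781 and supply 488 of 2566 transcript bases (19.0%). They are printed because they are the part of the message that a Cre-recombined allele cannot encode, and the capitals mark the codons of the HKD and DLG motifs of the kinase, which begin at codons 174 and 194 of 436 and hold the catalytic and the metal-binding aspartate.
Stk11 exon 3 (chr10:80125479-80125568): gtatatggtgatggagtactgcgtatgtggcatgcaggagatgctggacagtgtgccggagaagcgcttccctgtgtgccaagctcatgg
Stk11 exon 4 (chr10:80126033-80126165): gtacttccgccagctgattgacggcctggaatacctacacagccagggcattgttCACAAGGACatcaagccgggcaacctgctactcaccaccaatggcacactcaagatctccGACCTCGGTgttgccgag
Stk11 exon 5 (chr10:80126233-80126369): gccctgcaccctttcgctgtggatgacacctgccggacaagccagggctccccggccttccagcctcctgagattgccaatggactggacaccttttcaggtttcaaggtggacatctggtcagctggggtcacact
Stk11 exon 6 (chr10:80126654-80126781): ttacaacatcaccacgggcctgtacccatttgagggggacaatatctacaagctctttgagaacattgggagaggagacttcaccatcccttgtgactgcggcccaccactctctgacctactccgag
Both motifs lie in exon 4, and removal of 488 bases leaves a remainder of 2 bases after whole codons. The deposited values are totals over the whole gene, of whose counted length of 4580 bases 839 (18.3%) lie in that interval, so they do not separate recombined from intact alleles.

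The sites on which the complex acts are printed for the target kinases, because the 6 loops show how alike the substrates are. Each sequence is the coding stretch from the DFG to the APE motif, 81 bases or 27 codons, read 5′ to 3′ from the GENCODE vM21 transcripts on GRCm38, with the codon of the threonine that Stk11 phosphorylates in capitals.
Prkaa1 (chr15:5168706-5170002, plus strand, threonine codon 183): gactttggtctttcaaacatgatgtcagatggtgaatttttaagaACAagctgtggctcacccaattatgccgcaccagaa
Prkaa2 (chr4:105049348-105051208, minus strand, threonine codon 172): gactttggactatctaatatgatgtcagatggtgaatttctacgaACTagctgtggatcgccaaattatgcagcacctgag
Sik1 (chr17:31850986-31851235, minus strand, threonine codon 182): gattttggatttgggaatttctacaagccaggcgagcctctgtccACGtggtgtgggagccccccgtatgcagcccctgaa
Sik2 (chr9:50917573-50935416, minus strand, threonine codon 175): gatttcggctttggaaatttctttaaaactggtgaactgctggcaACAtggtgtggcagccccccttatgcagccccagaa
Sik3 (chr9:46155540-46177951, plus strand, threonine codon 221): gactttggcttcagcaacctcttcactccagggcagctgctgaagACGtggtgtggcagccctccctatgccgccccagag
Mark2 (chr19:7285843-7285923, minus strand, threonine codon 208): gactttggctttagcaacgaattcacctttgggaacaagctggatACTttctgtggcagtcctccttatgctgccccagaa
The loops of Prkaa1 and Prkaa2 encode the same 27 residues, although only 68 of their 81 bases are the same. Sik1 and Sik2 share 23 of 27 residues. Sik3 shares 21 with Sik2, 21 with Mark2 and 20 with Sik1. Prkaa1 shares 17 of 27 with each of Sik1, Sik2, Sik3 and Mark2. The codon of the threonine itself is ACA in Prkaa1 and Sik2, ACT in Prkaa2 and Mark2, and ACG in Sik1 and Sik3.

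Some features of the libraries touch every comparison. Counted reads ranged from 15.9M to 36.6M in tumor cells, from 9.14M to 26.8M in TRMs and from 10.4M to 26.1M in MDMs. All 10 epithelial markers were at 1 RPKM or more in each tumor cell library, and their sum was 10686 and 8647 RPKM in KL but 4227 and 4267 RPKM in KLG4. The 8 pan-leukocyte markers summed to 23.7 and 32.2 RPKM in KL tumor cells and to 237 and 244 RPKM in KLG4 tumor cells, and Ptprc, the gene of the CD45 surface protein that the sort selected against, was at 0.834 and 2.06 against 26.7 and 27.4 RPKM. The 6 fibroblast markers summed to 10.6 and 15.7 against 369 and 369 RPKM in these tumor cell libraries. B and plasma cell markers summed to 7.87 and 28.0 against 1719 and 1757 RPKM, neutrophil markers to 179 and 271 against 2248 and 2150 RPKM, alveolar macrophage markers to 52.0 and 70.02 against 394 and 402 RPKM, and T cell markers to 1.18 and 1.32 against 27.0 and 30.8 RPKM. In MDMs, 6 neutrophil markers summed to between 10630 and 23278 RPKM, and the 10 alveolar macrophage markers to between 1269 and 2336 RPKM. The 10 monocyte-derived macrophage markers summed to between 536 and 681 RPKM. The defining markers of the label were thus present, at a lower sum than those of neutrophils and of alveolar macrophages. In TRMs all 10 alveolar macrophage markers were at 1 RPKM or more, with sums from 8498 to 13014 RPKM.

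**Figure D1:**
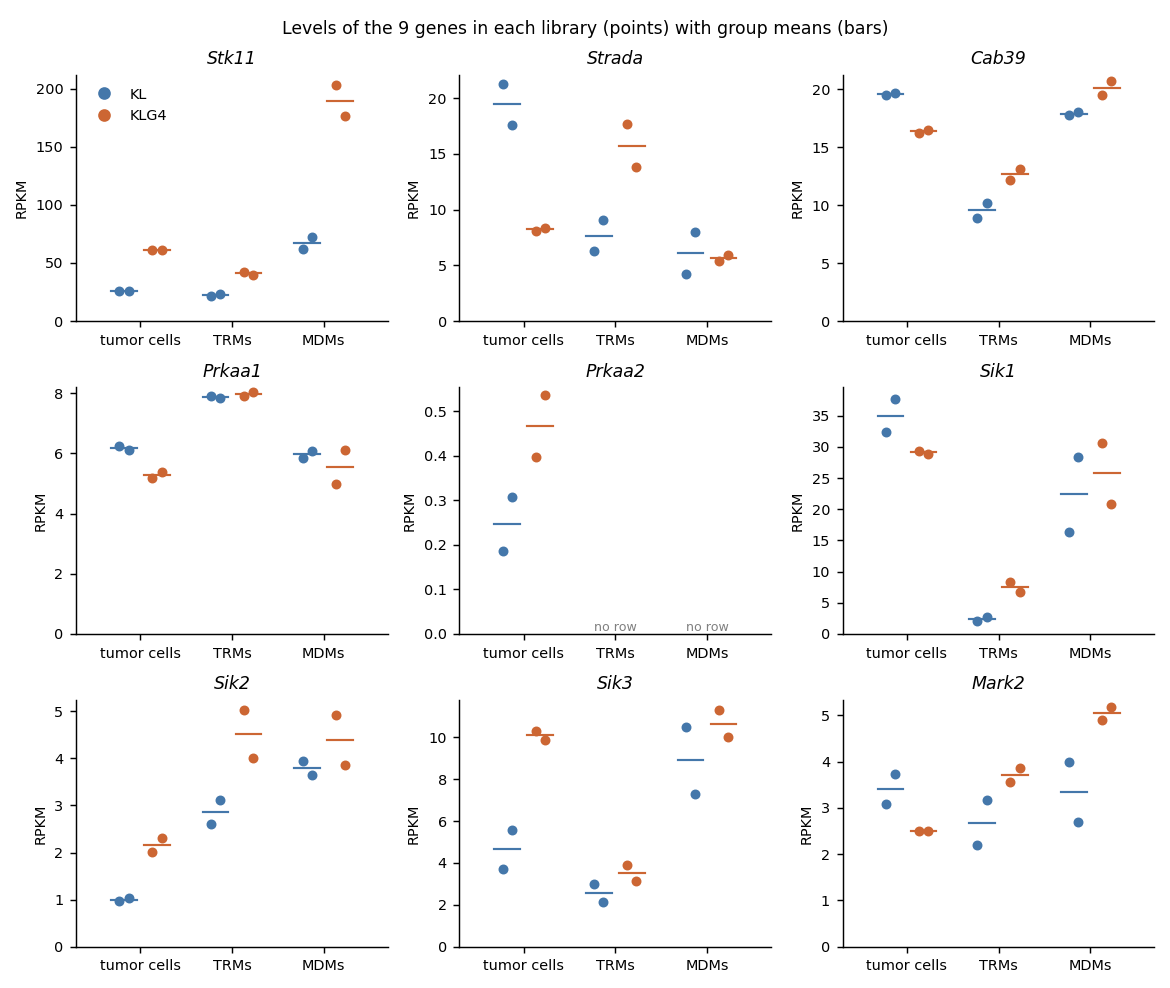
Levels of the 9 genes in RPKM (vertical axis, from 0) in the 12 libraries of tumor cells, TRMs and MDMs, with KL in blue and KLG4 in orange; points are libraries and short bars the means of 2. Stk11 is higher in both KLG4 libraries than in both KL libraries of every population, whereas Strada is lower in KLG4 tumor cells and higher in KLG4 TRMs.

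In tumor cells, Stk11 rose in KLG4 while Strada, its pseudokinase partner, fell, and 2 of the 3 salt-inducible kinases, Sik2 and Sik3, rose as well. Cab39, Prkaa1, Sik1 and Mark2 were each lower in KLG4 by 0.22 to 0.42 on the log2 scale and did not pass the test. With limma on log2(RPKM + 0.1), adjusted by Benjamini-Hochberg over all genes tested, 4 of the 8 members that passed the filter on low values (1 RPKM or more in 2 or more libraries) had an adjusted p under 0.05, 3 higher and 1 lower. Over all 13770 genes tested 40.3% passed, 20.6% higher and 19.6% lower, so a share of 4 of 8 is near the background. The groups of all 8 members were apart, 3 with both KLG4 libraries higher and 5 with both lower, as were those of 32.5% and 42.2% of all genes. The median log2 fold change of the 8 members was -0.24, beside -0.09 over all genes tested.

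Stk11 was at 25.9 and 25.8 RPKM in the KL libraries and at 61.6 and 61.6 RPKM in the KLG4 libraries. The groups did not overlap, and within a group the libraries were closer than 1 RPKM. The log2 fold change was 1.25 ± 0.11 (SE, n = 2 against 2, adjusted p = 9.0e-04, limma), and 14.4% of all genes tested had a larger one. Behind these values were 4347 and 3570 counted reads in KL, and 4978 and 4488 in KLG4. The KLG4 pair of tumor cell libraries was the most alike of the 6 pairs: the chi-square per gene between its libraries was 3.28, above the 1 that counting alone would give (2 where both mates of a pair are counted), and between 28.9 and 132 in the other 5 pairs.

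Strada went the other way, with 21.3 and 17.6 RPKM in KL but 8.11 and 8.37 RPKM in KLG4, a log2 fold change of -1.22 ± 0.15 (adjusted p = 0.0026, limma). The ratio of Stk11 to Strada, taken within each library and so unchanged by a single scaling factor per library, was 1.22 and 1.46 in KL and 7.59 and 7.35 in KLG4. Cab39, the scaffold, was at 19.5 and 19.7 RPKM in KL and 16.3 and 16.5 RPKM in KLG4 (log2 fold change -0.25 ± 0.12, adjusted p = 0.141, limma). Stk11 therefore stood at 1.33 and 1.31 times the RPKM of Cab39 in KL and at 3.78 and 3.73 times in KLG4. With 2 libraries against 2, an exact permutation test of a ratio cannot give a two-sided p under 0.333, so these ratios are given without one.

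A genomic neighbor of Strada was measured beside it, since exons of the pair overlap. The 5′ part of Strada (chr11:106163330-106202168, minus strand) overlaps the 3′ end of Ccdc47, on the same strand, by 158 exon bases, which is 2.84% of the counted length of Strada. Ccdc47, an endoplasmic reticulum protein gene named here after its values were seen, was at 71.9 and 81.8 RPKM in KL and at 46.1 and 50.1 RPKM in KLG4 tumor cells (adjusted p = 0.011, limma). Over the 12 libraries log2(RPKM + 0.1) of Strada and Ccdc47 had a Pearson r of 0.94, and among 10375 genes Ccdc47 ranked 21 in likeness to Strada. The same measure was 0.71 for Stk11 and its overlapping neighbor Cbarp (rank 1432), and 0.86 for Sik2 and its overlapping neighbor Ppp2r1b (rank 645). The part of the overlap in the Strada values was not tested.

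Prkaa1, the AMPK catalytic subunit most cell types use, was at 6.26 and 6.12 RPKM in KL and 5.20 and 5.38 RPKM in KLG4 tumor cells. This difference, -0.22 ± 0.15 on the log2 scale, did not pass the test (adjusted p = 0.271, limma), and its sign is the same as that of Cab39, Sik1 and Mark2. Prkaa2, the subunit best known from muscle, was near the limit of detection, at 0.185 and 0.307 RPKM in KL and 0.398 and 0.536 RPKM in KLG4, which rest on 54, 74, 56 and 68 counted reads, and it failed the filter. Without the filter its log2 fold change was 0.72 ± 0.29 (adjusted p = 0.103, limma). Prkaa2 contributed 2.87% and 4.78% of the summed Prkaa RPKM in KL, and 7.12% and 9.05% in KLG4.

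Sik1, an immediate early gene induced by cAMP, was the most abundant kinase among the targets in tumor cells, at 32.3 and 37.8 RPKM in KL and 29.4 and 28.9 RPKM in KLG4 (log2 fold change -0.26 ± 0.13, adjusted p = 0.165, limma). Sik2 rose from 0.962 and 1.04 RPKM to 2.00 and 2.30 RPKM, a log2 fold change of 1.03 ± 0.21 (adjusted p = 0.014, limma). The Sik2 value was 0.66 both with a pseudocount of 1 and under quantile scaling, where Stk11 was at 1.22 and 1.30. Sik3 rose from 3.71 and 5.59 RPKM to 10.3 and 9.88 RPKM, a log2 fold change of 1.13 ± 0.23 (adjusted p = 0.013, limma). The sum of the 3 SIKs overlapped between genotypes, at 37.0 and 44.4 RPKM in KL and 41.7 and 41.1 RPKM in KLG4, while its makeup shifted. Sik1 supplied 87.4% and 85.1% of it in KL and 70.5% and 70.3% in KLG4, and Sik3 supplied 10.0% and 12.6% against 24.7% and 24.1%.

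Sik2 has 14.98% of its counted length, 1429 bases, in common with exons of Ppp2r1b on the opposite strand, a gene of a protein phosphatase scaffold subunit that was named for this overlap. Ppp2r1b was at 2.04 and 1.51 RPKM in KL and at 2.47 and 2.76 RPKM in KLG4 tumor cells (adjusted p = 0.108, limma). Since the libraries did not mark strand, reads of the shared bases cannot be assigned to one of the pair. Mark2 was at 3.09 and 3.73 RPKM in KL and 2.51 and 2.50 RPKM in KLG4 (log2 fold change -0.42 ± 0.19, adjusted p = 0.127, limma). It passed under quantile scaling of the libraries, with a log2 fold change of -0.65 (adjusted p = 0.022, limma; 0.022 to 0.414 over its alternatives).

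Leaving out a library leaves 1 in its group, which is assumed to vary like the pair of the other group. Without KLG4 replicate 1 only Stk11 of the 8 members passed, and without KLG4 replicate 2 Stk11 and Strada did, while the number of all genes that passed went from 5543 to 1990 (14.5%) and 1927. The log2 fold changes were -1.20 and -1.24 for Strada, 1.13 and 0.94 for Sik2 and 1.10 and 1.16 for Sik3, close to those of all 4 libraries, with larger SEs. Without KL replicate 1 the count was 6 of 8, and 48.6% of all genes passed. The members added were Sik1, at -0.37 (adjusted p = 0.014, limma; 0.014 to 0.507 over its alternatives), and Mark2, at -0.56 (adjusted p = 0.048, limma), and without KL replicate 2 Sik1 was at -0.15. The markers of leukocytes, fibroblasts and each immune cell type given above and the share of reads from mitochondrially encoded genes, which was 4.21% and 5.12% in KL and 8.95% and 8.88% in KLG4, moved with genotype in the same libraries. Their part in the changes of Stk11, Strada, Sik2 and Sik3 was not tested. Stk11 ranged from 62.3 to 203 RPKM in MDMs and from 21.5 to 42.5 RPKM in TRMs, and Sik3 from 7.29 to 11.3 RPKM in MDMs and from 2.16 to 3.92 RPKM in TRMs. In bulk samples a change in the cells that make up a sample and a change of RNA per cell cannot be told apart.

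**Figure D2:**
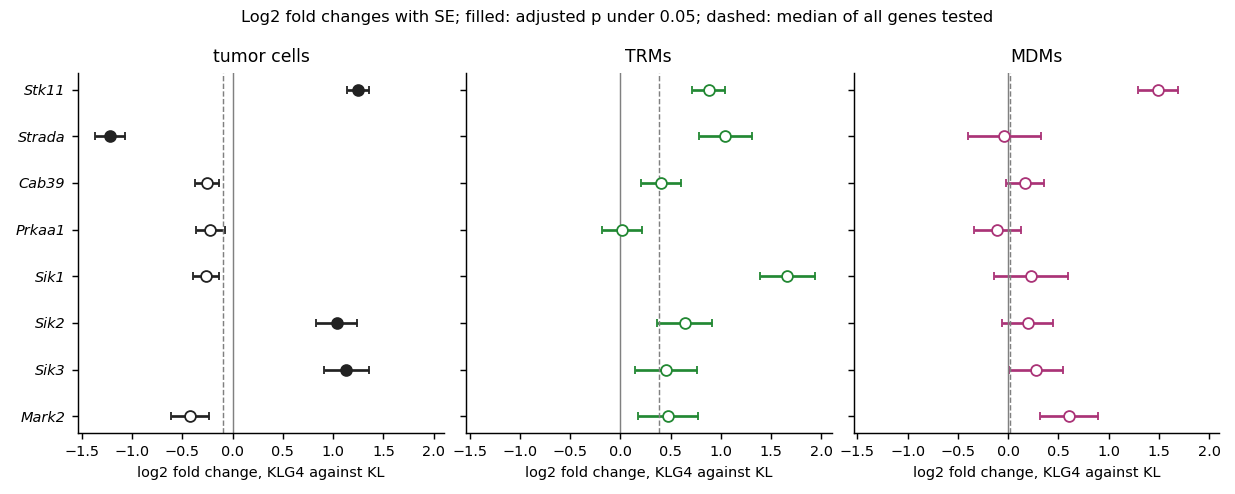
Log2 fold changes of KLG4 against KL (horizontal axis) with their SE for the 8 members tested in tumor cells, TRMs and MDMs; filled points have an adjusted p under 0.05, and the dashed line is the median of all genes tested (-0.09, 0.38 and 0.02). The 4 filled points, Stk11, Strada, Sik2 and Sik3, are all in tumor cells, and Stk11 lies to the right of 0 in all 3 panels.

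In TRMs no member passed the test, and the members with the largest log2 fold changes were Sik1, Strada and Stk11. The count was 0 of 8 by limma, where 1.8% of the 10990 genes tested passed, although 3 members had an unadjusted p under 0.05 (as had 28.3% of all genes) and limma-voom on the recovered reads called 1, Sik1 (and 7.15% of all genes). For 7 of the 8 members the lower KLG4 value exceeded the higher KL value, which was the case for 53.7% of all genes tested. The median log2 fold change was 0.56 over the members and 0.38 over all genes, and TMM scaling brought the latter to 0.00.

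The TRM libraries had Sik1 at 2.00 and 2.64 RPKM for KL and at 8.30 and 6.75 RPKM for KLG4. Both KLG4 values were more than 2 times the higher KL value, and the log2 fold change was 1.66 ± 0.27 (adjusted p = 0.051, limma; 0.020 to 0.208 over its alternatives). It was 1.28 under TMM scaling, and 3.56% of all genes had a larger one in the fit as deposited. The replicate-number block, a term for libraries that carry the same number, gave the same value with an adjusted p of 0.035 (limma), and without KL replicate 2 the value was 1.86 with an adjusted p of 0.020 (limma). In that last fit, where 1 KL library is left, 2382 genes or 21.7% of all passed.

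Stk11 was at 21.5 and 23.3 RPKM in KL and 42.5 and 40.0 RPKM in KLG4 TRMs, so that the groups did not overlap. The log2 fold change was 0.88 ± 0.17 (adjusted p = 0.059, limma), which lay 0.50 above the median of all genes, and it was 0.49 under TMM scaling. Strada, which fell in tumor cells, was at 6.25 and 9.08 RPKM in KL and 17.7 and 13.8 RPKM in KLG4 TRMs (log2 fold change 1.04 ± 0.26, adjusted p = 0.085, limma). Ccdc47, its overlapping neighbor, had 29.9 and 42.5 RPKM for KL and 72.4 and 66.0 RPKM for KLG4. The ratio of Stk11 to Strada overlapped between genotypes in TRMs, at 3.44 and 2.57 in KL and 2.40 and 2.90 in KLG4.

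The other TRM members had log2 fold changes closer to the median of all genes than those of Sik1, Strada and Stk11. Cab39 was at 8.90 and 10.2 RPKM in KL and 12.2 and 13.1 RPKM in KLG4, a log2 fold change of 0.40 ± 0.20 that became 0.02 under TMM scaling. Sik2, Sik3 and Mark2 had log2 fold changes of 0.64, 0.45 and 0.48, and of 0.26, 0.07 and 0.10 under TMM scaling. With 1 library left out they ranged from 0.48 to 0.80, from 0.23 to 0.68 and from 0.22 to 0.73. Prkaa1 was at 7.91 and 7.85 RPKM in KL and 7.90 and 8.04 RPKM in KLG4, the only member whose groups overlapped, and its log2 fold change of 0.02 turned to -0.37 under TMM and under quantile scaling. Sik1 supplied 26.3% and 33.4% of the summed SIK RPKM in KL and 48.1% and 48.6% in KLG4, a share that was not tested.

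The genotypes of the TRM libraries differed in other respects as well. Xist had 0.257 and 0.501 RPKM in KL but 18.3 and 20.2 RPKM in KLG4, and Eif2s3y was at 12.3 and 14.7 RPKM against listed values of 0 and 0, so that the sex of the animals and the genotype cannot be told apart in TRMs. The mitochondrially encoded genes took 13.2% and 9.17% of the counted reads in KL, and 1.43% and 2.40% in KLG4. Epithelial markers summed to 244 and 272 RPKM in KL against 84.1 and 151 RPKM in KLG4, monocyte-derived macrophage markers to 99.9 and 81.8 against 168 and 191 RPKM, and alveolar macrophage markers to 8603 and 8498 against 13014 and 12132 RPKM. The part of these differences in the TRM values of Sik1, Strada and Stk11 was not tested. Rescaling to the reads outside these genes gave Stk11 a log2 fold change of 0.73 (adjusted p = 0.082, limma; 0.031 to 0.257 over its alternatives).

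**Figure D3:**
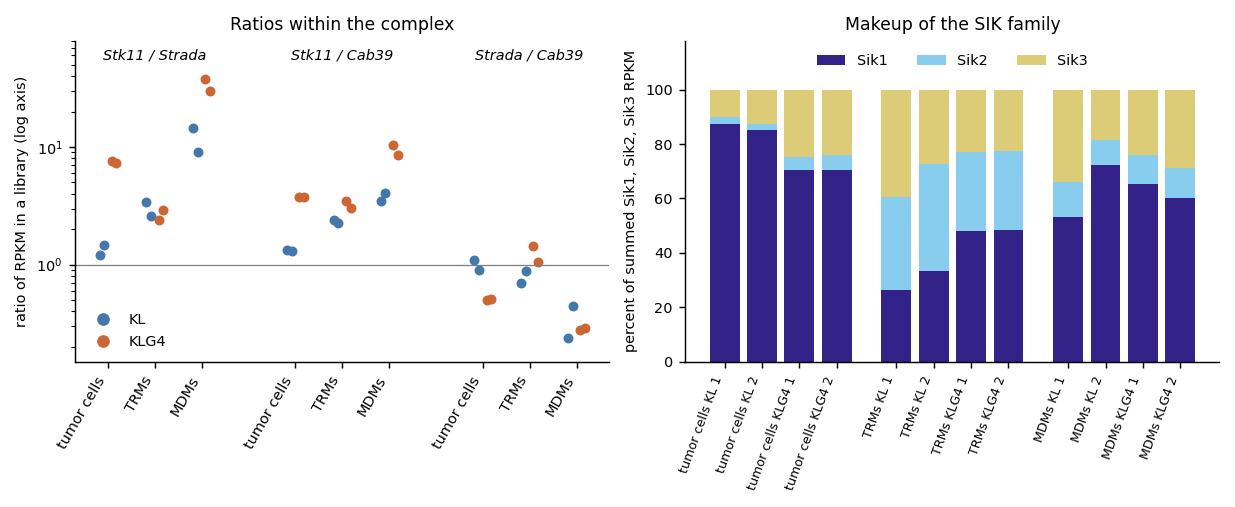
Left, ratios of RPKM between Stk11, Strada and Cab39 within each library (log axis), with KL in blue and KLG4 in orange; right, the percentages of the summed SIK RPKM that Sik1, Sik2 and Sik3 supplied in each of the 12 libraries. Stk11 exceeds Cab39 in all libraries, most in KLG4 MDMs at 8.53 and 10.4 times, and Sik1 supplies the most SIK RPKM in tumor cells, at 70.3% to 87.4%.

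In MDMs, Stk11 had the largest difference between genotypes of the 8 members and the highest levels of the 3 populations. Its levels were 62.3 and 72.6 RPKM for KL and 203 and 177 RPKM for KLG4, with 5294, 3451, 24260 and 21038 counted reads behind these values. The groups did not overlap, and the log2 fold change was 1.49 ± 0.20 (unadjusted p = 9.5e-04, adjusted p = 0.679, limma across all genes), which ranked 101 of the 10475 genes tested. No gene of the MDM table passed the adjusted test (0.0% of the genes tested), neither by limma nor by limma-voom, while 6.74% had an unadjusted p under 0.05, and Stk11 was 1 such gene among the members. The p of Stk11 ranked 10 of all genes tested. In the same libraries the mitochondrially encoded genes took 1.35% and 3.36% of the counted reads in KL and 0.494% and 0.661% in KLG4, and epithelial markers summed to 172 and 507 against 43.3 and 104 RPKM. Their part in the Stk11 values was not tested.

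The call in MDMs depends on 1 library. Without KL replicate 1, when the spread comes from the KLG4 pair alone, 2682 genes (25.6% of all) passed and Stk11 and Mark2 were among them, Stk11 with a log2 fold change of 1.38 (adjusted p = 0.019, limma; 0.019 to 1.00 over its alternatives) and Mark2 with 0.88 (adjusted p = 0.039, limma; 0.039 to 1.00). KL replicate 2, the library that stays, had Xist at 0.839 RPKM while the other 3 MDM libraries had 19.4 to 21.8 RPKM, and it had the lowest neutrophil and the highest epithelial marker sums, 10630 and 507 RPKM.

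Of the other members, 5 had overlapping groups in MDMs, whereas Stk11, Mark2 and Cab39 lay higher in both KLG4 libraries (25.4% of all genes did). Strada was at 4.26 and 7.99 RPKM in KL and 5.42 and 5.95 RPKM in KLG4, and Sik1 had 16.4 and 28.4 RPKM for KL, 30.7 and 20.8 RPKM for KLG4. In both cases the KL libraries spanned a wider range than the KLG4 libraries. Mark2 was at 4.002 and 2.69 RPKM in KL and 4.91 and 5.18 RPKM in KLG4 (log2 fold change 0.60 ± 0.29, adjusted p = 0.679, limma). Its log2 fold change ranged from 0.33 to 0.88 with 1 library left out. Cab39 was at 17.8 and 18.02 RPKM for KL and 19.5 and 20.7 RPKM for KLG4, and Prkaa1, Sik2 and Sik3 had log2 fold changes of -0.11, 0.20 and 0.28 with overlapping groups. With 1 library left out these ranged from -0.25 to 0.038, from 0.026 to 0.37 and from 0.018 to 0.54. The ratio of Stk11 to Strada was 14.6 and 9.08 in KL and 37.5 and 29.6 in KLG4 MDMs.

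Across populations the tables were normalized separately, so levels are set side by side without a test. Stk11 followed the order KLG4 MDMs (190 ± 18.9 RPKM, SD, n = 2), KL MDMs (67.4 ± 7.31), KLG4 tumor cells (61.6 ± 0.03), KLG4 TRMs (41.2 ± 1.75), KL tumor cells (25.8 ± 0.10) and KL TRMs (22.4 ± 1.29). No neighbors in this order overlapped, but KL MDMs and KLG4 tumor cells were separated by less than 1 RPKM. Strada ran from 19.4 ± 2.60 RPKM in KL tumor cells down to 5.69 ± 0.38 RPKM in KLG4 MDMs, and its last 4 groups each overlapped the next. Sik1 was lowest in KL TRMs, at 2.32 ± 0.46 RPKM, and highest in KL tumor cells, at 35.05 ± 3.85 RPKM, with overlap of KLG4 tumor cells, KLG4 MDMs and KL MDMs.

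Prkaa1 ranged from 5.29 ± 0.13 RPKM in KLG4 tumor cells to 7.97 ± 0.10 RPKM in KLG4 TRMs, and Cab39 ranged from 9.57 ± 0.94 RPKM in KL TRMs to 20.1 ± 0.82 RPKM in KLG4 MDMs. Sik2 was lowest in KL tumor cells, at 1.00 ± 0.05 RPKM, and reached 4.52 ± 0.73 RPKM in KLG4 TRMs. Sik3 was lowest in KL TRMs, at 2.57 ± 0.58 RPKM, and its 3 highest groups, KLG4 MDMs, KLG4 tumor cells and KL MDMs, overlapped. Mark2 lay between 2.51 ± 0.01 RPKM in KLG4 tumor cells and 5.04 ± 0.19 RPKM in KLG4 MDMs, and every group below the highest overlapped the next.

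The genes whose log2(RPKM + 0.1) was most like that of Stk11 over the 12 libraries, of 10376 genes at 1 RPKM or more in at least 6 libraries, were Sbno2 (Pearson r = 0.96), Ddx3x (0.96) and Prdm2 (0.95). For Sik1 they were Slc38a2, Stim2 and Sgsh, each at 0.98. These 12 points are 3 populations and 2 genotypes and share libraries, so r is a description of this set. Among the members, Cab39 and Sik1 were the pair most alike, at 0.94, and Prkaa1 and Sik3 the least alike, at -0.89.

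Stk11 and Gpx4 are close neighbors on chromosome 10, 59.4 kb apart, and the genes around them were read to see whether the values of Stk11 stood alone. Sbno2, a transcriptional coregulator of the IL-10 response, is the one measured gene between them. It rose in tumor cells from 14.5 and 17.8 to 109 and 112 RPKM (log2 fold change 2.78 ± 0.14, adjusted p = 2.5e-04, limma) and in TRMs from 8.12 and 13.8 to 54.5 and 52.2 RPKM (2.32 ± 0.28, adjusted p = 0.036, limma). The MDM values were 69.3 and 67.8 RPKM for KL and 347 and 333 RPKM for KLG4.

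Beyond Stk11, Cbarp overlaps its 3′ end from the opposite strand by 232 bases, 5.07% of the counted length of Stk11. Cbarp, a regulator of calcium channels, rose in tumor cells from 4.66 and 4.57 to 7.59 and 7.32 RPKM (log2 fold change 0.68 ± 0.14, adjusted p = 0.017, limma), and it was higher in both KLG4 libraries of TRMs and of MDMs too. Of the 8 genes tested in this stretch beside Gpx4 and Stk11, 4 lay higher in both KLG4 libraries in tumor cells, 5 in TRMs and 5 in MDMs, and 3, 3 and 1 lay lower in both. Over all genes tested, 32.5%, 53.7% and 25.4% lay higher in both, and 42.2%, 8.95% and 19.1% lay lower in both. In tumor cells 2 of these 8 genes passed the test upward, Sbno2 and Cbarp, and 2 downward, Polr2e and 1600002K03Rik, near the 20.6% and 19.6% of all genes that did.

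**Figure D4:**
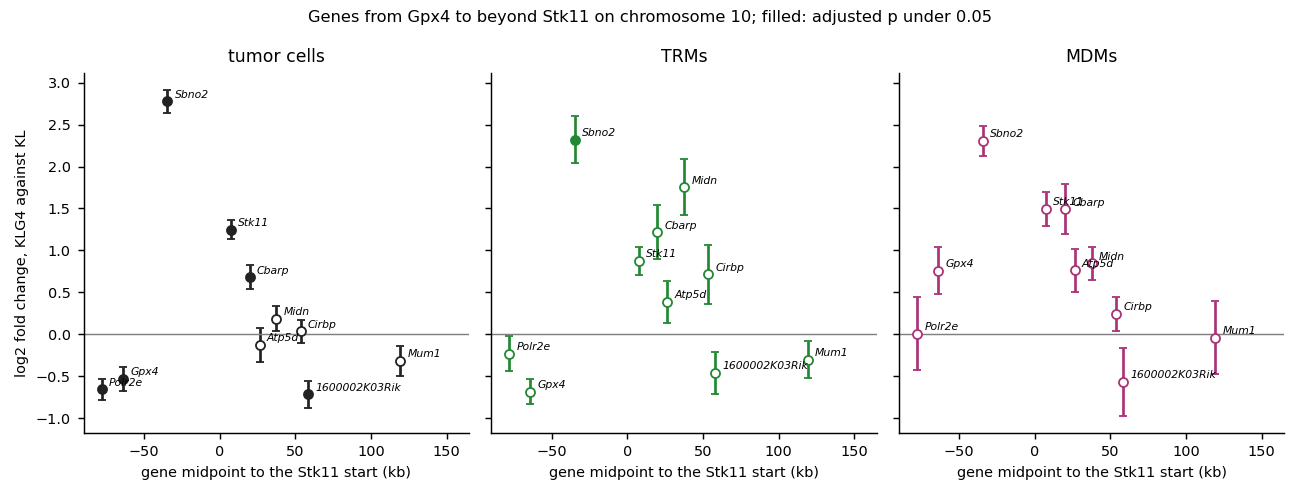
Log2 fold changes of KLG4 against KL with their SE (vertical axis) for the genes tested from Polr2e and Gpx4 to Mum1, by the distance of each gene's midpoint from the start of Stk11 in kb; filled points have an adjusted p under 0.05. Sbno2 is the highest point in each panel (2.78, 2.32 and 2.31). Stk11 (1.25, 0.88 and 1.49) and Cbarp (0.68, 1.22 and 1.49) are higher than Mum1, the farthest gene (-0.32, -0.30 and -0.04). Between Cbarp and Mum1, Midn is at 0.19, 1.75 and 0.85. In the same stretch 1600002K03Rik is at -0.71, -0.46 and -0.57, below Mum1 in each panel.

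Of the rest of the pathway, 7 lists of 51 genes in all were read in the same fits: paralogs and chaperones of the complex, the AMPK beta and gamma subunits, the other kinases that Stk11 phosphorylates, other AMPK-activating kinases, SIK substrates, cAMP- and CRTC-responsive genes, and AMPK substrates and effectors. In tumor cells 14 of the 41 genes tested passed (34.1%, beside 40.3% of all genes), 10 higher and 4 lower, with a median log2 fold change of 0.09. In TRMs 0 of 37 passed by limma (14 at an unadjusted p under 0.05, as 28.3% of all genes, and 4 by limma-voom, as 7.15% of all), with a median of 0.62 beside 0.38 over all genes. In MDMs 0 of 39 passed by limma (2 at an unadjusted p under 0.05, as 6.74% of all genes, and 0 by limma-voom, as 0.0% of all), with a median of 0.17.

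Among the paralogs and chaperones in tumor cells, 1 of 4 genes tested fell and none rose, where 19.6% and 20.6% of all genes did. It was Hsp90ab1, the constitutive cytosolic HSP90 that folds Stk11 among many kinases, at 3722 and 3558 RPKM in KL and 2296 and 2302 RPKM in KLG4 (log2 fold change -0.66 ± 0.13, adjusted p = 0.014, limma). It has processed copies elsewhere in the genome, so its count is less certain. None of the 4 AMPK beta and gamma subunit genes tested, and neither of the 2 other AMPK-activating kinases, passed the test, with medians of 0.18 and 0.09.

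Of the other kinases under Stk11, 2 of 6 rose and 2 fell in tumor cells, beside 20.6% and 19.6% of all genes. Mark1, a second microtubule affinity-regulating kinase, rose from 0.251 and 0.281 to 1.31 and 1.64 RPKM (log2 fold change 2.10 ± 0.25, adjusted p = 0.0025, limma), whereas Mark3 fell from 21.6 and 23.3 to 16.9 and 14.9 RPKM (-0.49 ± 0.13, adjusted p = 0.035, limma). Nuak2, a stress-responsive kinase, rose from 2.41 and 2.55 to 5.20 and 5.29 RPKM, and Brsk1, best known from neurons, fell from 1.01 and 1.10 to 0.608 and 0.521 RPKM. Mark3, with a mean of 19.2 RPKM, was far more abundant in tumor cells than Mark2, with 2.96 RPKM, while Mark1 stayed below 2 RPKM.

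Downstream of the SIKs, 1 of the 4 substrate genes tested rose in tumor cells (20.6% of all genes rose and 19.6% fell), and the cAMP- and CRTC-responsive genes did not move together. Hdac4, a class IIa histone deacetylase, rose from 0.860 and 1.27 to 3.37 and 3.16 RPKM (log2 fold change 1.55 ± 0.25, adjusted p = 0.0062, limma). Of 10 cAMP- and CRTC-responsive genes tested, 4 rose (Nr4a3, Pde4b, Crem and Per1, the last named after its values were seen) and 1 fell (Fos), to be read against the same 20.6% and 19.6%. Nr4a3, an orphan nuclear receptor, rose from 5.84 and 5.67 to 32.7 and 30.2 RPKM (2.43 ± 0.13, adjusted p = 2.8e-04, limma), while its paralog Nr4a1 was at 109 and 140 RPKM in KL and 106 and 110 RPKM in KLG4 (-0.19 ± 0.15). Pde4b, a cAMP phosphodiesterase, rose from 7.48 and 6.87 to 25.8 and 25.8 RPKM, and Crem rose by 0.61 on the log2 scale. Fos, an AP-1 subunit, fell from 563 and 535 to 323 and 331 RPKM.

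Downstream of AMPK, 3 of 11 substrates and effectors (27.3%) rose in tumor cells and none fell, near the 20.6% of all genes that rose. Fnip2, a partner of folliculin at the lysosome, rose from 0.810 and 1.19 to 9.15 and 10.0 RPKM, the largest log2 fold change of the 7 lists (3.16 ± 0.23, adjusted p = 5.7e-04, limma). Fnip1, its paralog, rose from 3.46 and 4.81 to 10.4 and 10.2 RPKM (1.31 ± 0.20, adjusted p = 0.0054, limma), and the third was Tbc1d1, named after its values were seen. In MDMs, Fnip2 was at 8.50 to 22.2 RPKM, Pde4b at 40.6 to 57.9 RPKM and Nr4a3 at 80.6 to 149 RPKM, and in TRMs at 3.43 to 8.62, 12.4 to 25.9 and 24.4 to 48.4 RPKM, all above their levels in the KL tumor cells. The leukocyte markers moved with genotype in the tumor cell libraries (23.7 and 32.2 against 237 and 244 RPKM), and their part in the changes in tumor cells was not tested.

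**Figure D5:**
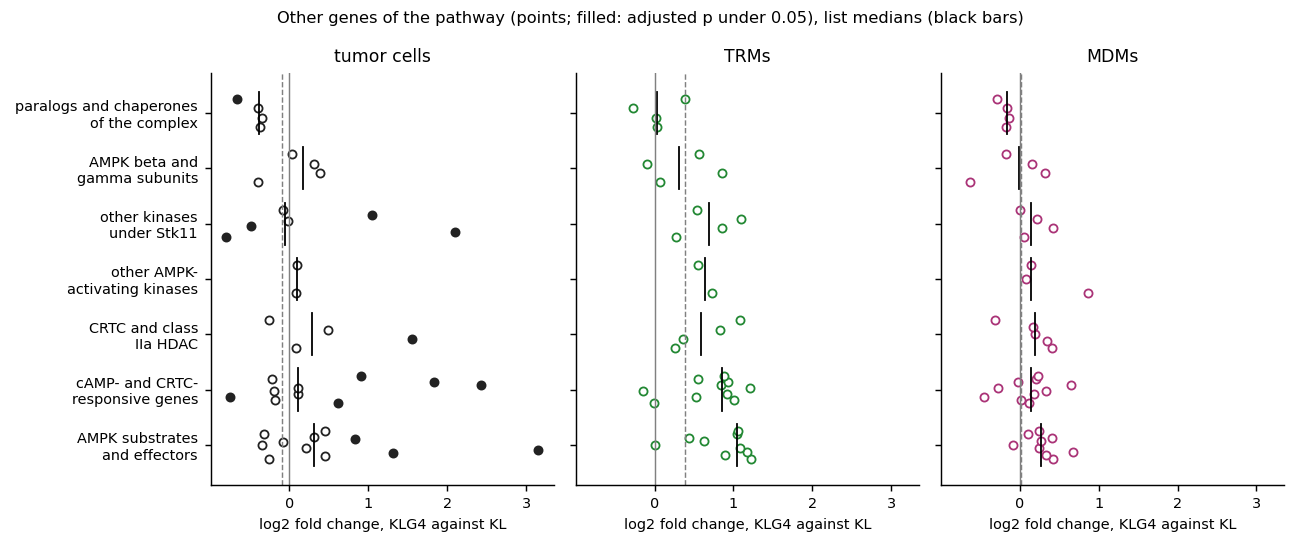
Log2 fold changes of KLG4 against KL (horizontal axis) of the genes tested in 7 pathway lists in tumor cells, TRMs and MDMs; filled points have an adjusted p under 0.05, black bars are list medians and the dashed line is the median of all genes. Filled points, 14 of 41, occur in the tumor cell panel only, and Fnip2 is the farthest to the right, at 3.16.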

How the data were processed

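Poly(A) RNA of sorted cells was sequenced as read pairs in libraries that do not mark strand. Per the labels and methods, the authors used Trim Galore 0.6.4, HISAT2 2.0.5 and featureCounts 2.0.0 and deposited RPKM values, 1 table for each population. The tables also held the authors' own fold changes and p-values, which were not used. Not analysed here were 5 further samples (CD8+ T cells and monocytes). RPKM times gene length gave whole reads in 100% of the values below 2000 reads (tolerance 0.05), from which depths were taken. Groups came from sample titles. An allele that both genotypes share is not reported here.

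KLG4 was compared with KL within each table by limma 3.58.1 (R 4.3.3), two-sided, with log2(RPKM + 0.1) as input and the variance modelled as a trend of the mean, for genes at 1 RPKM or more in at least 2 of 4 libraries, with Benjamini-Hochberg adjustment over the table. A gene was called at an adjusted p under 0.05. The fold changes of low genes are understated on this scale. The fit was tested on simulated data. Alternatives were pseudocounts of 1 and 0.01, filters, TMM and quantile scaling, rescaling outside mitochondrially encoded genes, no trend, a replicate block, limma-voom on recovered reads, and leaving out each library. Named were the 9 members, Gpx4 and Sbno2, the pathway genes called in TRMs or MDMs, in tumor cells the 2 largest rises and 2 largest falls called of each list plus Nr4a1 and Crem, and the 3 genes most like Stk11 and Sik1. Members and lists were chosen with earlier results of these data known. Sequences and positions came from GENCODE vM21 (GRCm38), with which 8 of the 9 deposited gene starts and ends agree exactly, and Sik1 differs by a few bases.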

Additional observations from a re-analysis of the deposited data

Results flagged for a closer look

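Of the 8 members tested, 4 had both KLG4 libraries below both KL libraries in tumor cells and above both in TRMs, as had 22.0% of the 10217 genes tested in both tables. With MDMs in place of TRMs it was 2 members, Cab39 and Mark2, and 7.86% of 9619 genes, since the groups of Strada and Sik1 overlapped in MDMs. The difference between populations was not tested, because the tables were normalized separately. For Strada the log2 fold change in tumor cells was lower than that in TRMs by a difference of -2.26 (-1.22 against 1.04), and for Sik1 by -1.92 (-0.26 against 1.66). Under TMM scaling the TRM values stayed above 0, at 0.65 for Strada and 1.28 for Sik1. For Cab39 the differences were -0.66 to TRMs and -0.42 to MDMs, and for Mark2 they were -0.90 to TRMs and -1.03 to MDMs. The TRM values of Cab39 and Mark2 were 0.02 and 0.10 under TMM scaling, and those in MDMs, 0.17 and 0.60, had SEs of 0.19 and 0.29. Of these 4 genes only Strada in tumor cells passed the test within a population.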

How the results depend on the processing

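Stk11 kept its direction in all 42 alternative values. In tumor cells it passed in every one, and leaving out 1 library gave 1.24 to 1.25. In TRMs it passed with a pseudocount of 1 (0.85), with the filter at a mean of 5 RPKM (0.88) and without KL replicate 2, and leaving out 1 library gave 0.82 to 0.94. In MDMs it passed without KL replicate 1, and leaving out 1 library gave 1.38 to 1.60. The count of members called stayed within 3 to 5 in tumor cells, while 36.7% to 48.8% of all genes passed, except when 1 library was left out (1 to 6, with 1927 to 7372 of all 13770 genes). In TRMs it moved from 0 to 2 with a pseudocount of 1 and to 1 with the filter at a mean of 5 RPKM, the replicate block or limma-voom (0 to 3 with 1 library left out), and in MDMs it was 0 to 2 with 1 library left out. Other pathway genes called were 4 to 19, 0 to 10 and 0 to 6 in tumor cells, TRMs and MDMs with 1 library left out, as calls over all genes went from 1927 to 7372, 113 to 2382 and 0 to 2682, and in TRMs 1 with a pseudocount of 1, 5 with the filter at a mean of 5 RPKM and 4 with limma-voom. The direction turned for Prkaa1 in TRMs under quantile (-0.37), TMM (-0.37) and mitochondrial rescaling (-0.12) and limma-voom (-0.38); these fits take out a shift of the whole library. With 1 library left out, Strada (-0.49 to 0.41), Prkaa1 (-0.25 to 0.038) and Sik1 (-0.17 to 0.62) in MDMs changed sign, and the cause was not tested. Of 286 values of the members other than Stk11, 263 kept direction and side of the threshold, 5 lost and 9 gained a call, and 9 turned. Over all genes, calls in TRMs numbered 198, but 12 with no trend, 30 with TMM, 60 with quantile and 66 with mitochondrial rescaling, 120 and 122 with no filter and a pseudocount of 0.01, 470 with the replicate block, 490 with a pseudocount of 1, 557 with the filter at a mean of 5 RPKM, 762 with limma-voom and 113 to 2382 with 1 library left out (2382 without KL replicate 2). Libraries with the same number did not deviate together (r = 0.02, -0.06 and 0.05 over genes in tumor cells, TRMs and MDMs), so the numbers only name them; the block moved the count of members called from 0 to 1 in TRMs and left it at 4 and 0 in tumor cells and MDMs. The filter left out Prkaa2, which had 54 to 74 reads, and with 2 libraries a group an adjusted p rests on a spread borrowed across genes.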
